A study of Homo sapiens with 13 samples.

Results

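Which placental or amnion genes were expressed after human embryonic stem cells had been exposed to BMP4 for up to 42 h was examined in 10 marker genes of 61541 human features counted. The genes were chosen by name: VTCN1, used as a marker of amnion, and 9 genes used as markers of trophoblast or placenta, namely GCM1, CGA, SDC1, HSD3B1, CYP19A1, PGF, ELF5, SIGLEC6 and ERVW-1. All 10 were found in the count tables of both experiments. The cells were RUES2, a human embryonic stem cell line, carrying a GFP::SMAD4 fusion that reports BMP signaling, and all libraries came from this one line. In the time series, total RNA depleted of ribosomal RNA was sequenced from 2 libraries at 0 h and 1 library each at 4, 12, 20, 28 and 42 h of 100 ng/mL BMP4 with 5 µM IWP2, which blocks Wnt secretion, and RI, a ROCK inhibitor. The labels give the 0 h libraries this treatment too. In the dose response, polyA-selected RNA was sequenced at 5 h from cells in the same BMP4, IWP2 and RI with 0, 10, 30, 100 or 300 nM LDN-193189, an inhibitor of BMP receptors, and from 1 untreated culture, with 1 library each. The experiments also used different RNA extraction kits, so levels were compared within an experiment and not between them.

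Amnion and trophoblast are the early tissues outside the embryo proper that can both be obtained from pluripotent cells with BMP, and they share many genes, among them GATA2, GATA3, the TFAP2 factors and several keratins. Trophoblast forms the placenta. Its progenitors, the cytotrophoblast, either fuse into the syncytiotrophoblast, which makes hormones such as chorionic gonadotropin and sex steroids, or become invasive extravillous cells. In bulk RNA, more cells expressing a gene and more RNA per cell cannot be told apart.

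By 42 h only VTCN1 among the 10 genes had both risen and reached more than 1 CPM, the gene's counts per 1000000 counts of the library. SDC1, a trophoblast marker that the pluripotent cells already expressed, fell. PGF and ERVW-1 were highest at 4 h and declined after it. CGA and GCM1 appeared late at a trace level, CYP19A1 stayed low, and HSD3B1, ELF5 and SIGLEC6 never exceeded 3 counts in any of the 13 libraries.

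Totals ranged from 37957385 to 71333471 counts in the time series and from 15600931 to 33989998 in the dose response. A gene with no counts could thus have been present at up to 0.042 to 0.079 CPM in the time series and 0.088 to 0.192 CPM in the dose response, taking 3 counts as the upper limit. The untreated library was the shallowest and had the highest mitochondrial share, 7.89% against 4.22% to 4.49% in the other dose-response libraries. At 0 h the 2 libraries also differed in this share (7.60% and 4.29%). The pluripotency genes SOX2 and NANOG stood at 389 and 375 CPM and at 146 and 116 CPM in the 0 h libraries, and reached 11.6 and 1.08 CPM at 42 h. POU5F1 was at 1003 and 1721 CPM at 0 h and at 1145 CPM at 42 h. Intervals given below are exact 95% intervals that cover counting error only.

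VTCN1, and CGA and GCM1 at trace level, were higher at 42 h than at 0 h, and SDC1 was lower. The sequences just before the start sites of these 4 genes are shown. They are RefSeq sequences of GRCh38.p14, which held entries for all 10 genes, cut to bases outside the GENCODE v44 gene. All 4 genes lie on the minus strand, and the sequences are written 5′ to 3′ along it. Capitals mark matches, on either strand, to GATAA (bound by GATA factors), GCCNNNGGC (TFAP2 factors), TGACGTCA (the cyclic AMP response element) and GGCGCC (a GC-rich element of BMP SMADs). No matches overlapped.
VTCN1, chr1:117210961-117211177: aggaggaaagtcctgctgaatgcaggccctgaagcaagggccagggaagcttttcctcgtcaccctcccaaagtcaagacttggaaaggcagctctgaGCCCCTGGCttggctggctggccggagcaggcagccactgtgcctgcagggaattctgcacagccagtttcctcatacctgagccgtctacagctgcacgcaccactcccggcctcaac
CGA, chr6:87095107-87095356: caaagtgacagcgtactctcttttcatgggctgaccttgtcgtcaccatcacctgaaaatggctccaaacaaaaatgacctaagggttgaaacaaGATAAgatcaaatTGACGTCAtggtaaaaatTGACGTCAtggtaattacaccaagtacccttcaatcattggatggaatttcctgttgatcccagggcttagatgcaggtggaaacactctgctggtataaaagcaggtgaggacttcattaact
GCM1, chr6:53148842-53149091: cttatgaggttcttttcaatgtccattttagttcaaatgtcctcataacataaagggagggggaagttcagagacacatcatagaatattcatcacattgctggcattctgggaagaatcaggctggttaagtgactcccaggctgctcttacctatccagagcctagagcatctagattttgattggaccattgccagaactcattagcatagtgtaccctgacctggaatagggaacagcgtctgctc
SDC1, chr2:20225476-20225725: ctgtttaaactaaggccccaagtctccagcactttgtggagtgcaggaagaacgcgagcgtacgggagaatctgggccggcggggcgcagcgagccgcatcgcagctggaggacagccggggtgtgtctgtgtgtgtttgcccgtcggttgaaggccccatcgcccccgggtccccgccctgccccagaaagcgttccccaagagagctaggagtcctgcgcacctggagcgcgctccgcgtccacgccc

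The 250 bases before the CGA start held 2 copies of TGACGTCA, a motif that was present in 1.65% of 35116 promoter windows of this length, and 1 GATAA. The VTCN1 window held 1 match to GCCNNNGGC, which 19.8% of windows contained. GATAA was found in 20.4% and GGCGCC in 16.4% of windows. None of the 4 motifs was present in the windows of GCM1, SDC1 or PGF. GATAA was also present in the windows of HSD3B1, with 2 matches each, and in 3 of the 7 windows of CYP19A1, of which CYP19A1 was not called at any time and HSD3B1 had too few counts to be tested. These matches describe the letters only.

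VTCN1 encodes a B7 family protein that restrains T cells, and lies in GRCh38 at chr1:117143587-117210960 with 6 exons in its canonical transcript. Its level was 0.184 and 0.182 CPM in the 0 h libraries and 0.088, 0.107, 0.281 and 0.457 CPM at 4, 12, 20 and 28 h. At 42 h it reached 10.1 CPM, from 620 counts. Every library up to 28 h was thus below 0.5 CPM, and the gain lay almost wholly in the last interval sampled. The ratio of 28 h over 0 h had an interval of 1.35 to 4.70, and the 42 h level was 55.4-fold the 0 h level (35.5 to 91.3). In the edgeR quasi-likelihood fit of a linear trend in hours, VTCN1 rose by 0.15 ± 0.02 (SE) on the log2 scale per hour (adjusted p = 0.00148). The call did not hold for a trend in log2(hours + 1) (edgeR adjusted p = 0.0616). In the fit in hours, 1 of the 3 members tested rose and 1 fell, where 19.2% of all 15976 genes tested rose and 17.5% fell. The trend rested on the 42 h library. Without it VTCN1 fell below the mean of 1 CPM required, and with a limit of 10 counts in its place the adjusted p was 0.145. With the 6 time points fitted as groups, 42 h exceeded 0 h by 6.01 ± 0.50 (SE) on the log2 scale (adjusted p = 4.18e-31), while the same edgeR fit gave 1.38 ± 0.59 at 28 h (adjusted p = 0.0852). VTCN1 and SDC1 were the members called at 42 h, 1 in each direction of 3 tested, where 19.9% of all genes rose and 17.8% fell. In this fit the spread came from the 0 h pair alone, and the single libraries were assumed to vary like it.

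**Figure D1:**
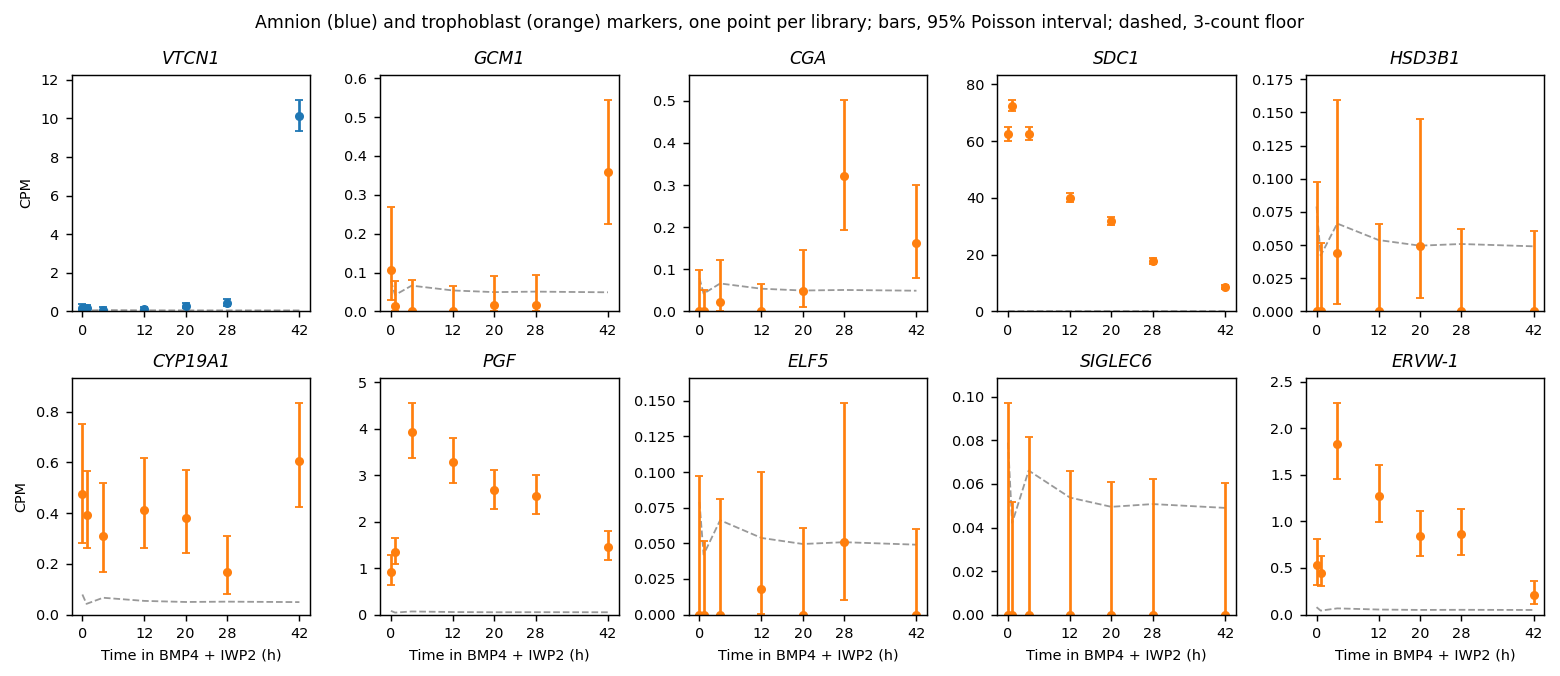
Level of each of the 10 marker genes (CPM, linear axis from 0, scaled per gene) against hours in BMP4 with IWP2, with the 0 h libraries drawn slightly apart. Points are single libraries, bars their exact 95% Poisson intervals and the dashed line the level of 3 counts, and the plot shows VTCN1 at 10.1 CPM at 42 h, SDC1 falling from 62.5 and 72.5 to 8.51 CPM, and PGF and ERVW-1 highest at 4 h.

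Most other B7 genes were too low to be tested with the limit of 1 CPM. Of 8 listed, CD276 and ICOSLG passed it, and neither was called at 42 h in the edgeR group fit, where 19.9% of all genes rose and 17.8% fell. So few tested genes cannot show whether the family shared the course of VTCN1. CD274, which encodes PD-L1, failed that limit but went from 0.053 and 0.014 CPM at 0 h to 3.76 CPM at 42 h. It was tested with a limit of 10 counts over all libraries (edgeR adjusted p = 8.72e-28). Of 6 B7 genes tested with that limit CD274 alone rose and none fell, against 14.6% and 13% of all genes. The genes whose course over the 6 time points was nearest to that of VTCN1, each scaled to its own maximum, among all with a mean of 1 CPM or more, were ACP3 (Euclidean distance 0.0147), LRRC32 (0.0214) and P2RY6 (0.0266). ACP3 rose from 1.42 CPM at 28 h to 31.0 CPM at 42 h. This set was drawn up for VTCN1 after its values were known.

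SDC1 encodes syndecan-1, a heparan sulfate proteoglycan of epithelia that is abundant on the syncytiotrophoblast surface, and lies at chr2:20200797-20225433 with 5 exons. It stood at 62.5 and 72.5 CPM at 0 h and 62.7 CPM at 4 h. It was then 40.1, 31.7, 17.7 and 8.51 CPM at 12, 20, 28 and 42 h. The 4 h library lay within the 0 h pair and each later library lay below all earlier ones. The 42 h level was 0.123-fold the 0 h level (0.113 to 0.135). SDC1 fell by 0.065 ± 0.0044 (SE) on the log2 scale per hour in the edgeR trend fit (adjusted p = 5.1e-05). Its log2 ratio of 42 h over 0 h was −2.99, past the standard deviation of 1.55 over the 13651 genes whose mean over the 6 time points was 2.5 CPM or more, of which 7.49% rose and 8.65% fell past it. SDC1 and PGF were the 2 members with such a mean, and PGF, whose mean was just above the limit, did not pass the standard deviation.

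Of 7 other syndecans and glypicans listed, all were tested, and SDC2, SDC3, SDC4 and GPC1 rose and none fell at 42 h in the edgeR group fit, where 19.9% of all genes rose and 17.8% fell. SDC4 went from 43.0 and 42.5 CPM at 0 h to 249 CPM at 42 h (log2 change 2.78 ± 0.32 SE, edgeR adjusted p = 9.83e-17). SDC2 went from 55.4 and 61.1 CPM to 152 CPM (log2 change 1.63 ± 0.32 SE, edgeR adjusted p = 2.6e-06). The genes nearest to SDC1 in their course were CA11 (distance 0.0692), PKLR (0.0788) and BRSK2 (0.0868).

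PGF encodes placental growth factor, a ligand of the VEGF receptor FLT1, and lies at chr14:74941834-74955626 with 7 exons. It stood at 0.922 and 1.35 CPM at 0 h, rose to 3.93 CPM at 4 h, and was 3.28, 2.67, 2.56 and 1.45 CPM at 12, 20, 28 and 42 h. The 4 to 28 h libraries were all above the 0 h pair, and the 42 h library was near its higher member. The 4 h level was 3.28-fold the 0 h level (2.60 to 4.14) and the 42 h level 1.21-fold (0.916 to 1.60). A linear trend did not describe this course (edgeR adjusted p = 0.872). With time points as groups, PGF was higher than at 0 h by 1.69 ± 0.43 (SE) on the log2 scale at 4 h (edgeR adjusted p = 0.00248), and still passed at 28 h (adjusted p = 0.0258), whereas 42 h did not pass (adjusted p = 0.328). At 4 h 4.39% of all genes rose and 0.632% fell, and PGF was the 1 member of 3 tested that rose. At 28 h 13.3% rose and 7.04% fell, and PGF rose and SDC1 fell. The separate comparisons at 4 to 28 h were added after the levels had been seen.

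FLT1, a receptor of PGF, fell from 152 and 114 CPM at 0 h to 21.3 CPM at 42 h (log2 change −2.41 ± 0.37 SE, edgeR adjusted p = 1.54e-09). The related receptor KDR fell from 68.2 and 60.4 CPM to 6.06 CPM (log2 change −3.17 ± 0.39 SE, edgeR adjusted p = 1.16e-14). Over the 9 other genes of the VEGF list, 8 were tested, of which NRP1 and VEGFB rose and FLT1, KDR, FLT4 and NRP2 fell at 42 h, against 19.9% and 17.8% of all genes. NRP1, a coreceptor, went up late, from 4.25 CPM at 28 h to 25.5 CPM at 42 h.

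ERVW-1 encodes syncytin-1, a retroviral envelope protein that fuses trophoblast cells, and lies at chr7:92468380-92477986 with 2 exons. It stood at 0.527 and 0.449 CPM at 0 h, then at 1.83, 1.27, 0.842 and 0.863 CPM at 4, 12, 20 and 28 h, and ended at 0.212 CPM from 13 counts. The 4 h library was the highest and the 42 h library the lowest of the 7. The 4 h level was 3.85-fold the 0 h level (2.69 to 5.55) and the 42 h level 0.446-fold (0.223 to 0.832). Its mean was below 1 CPM. With a limit of 10 counts, which 7 of the 10 members met, the edgeR group fit gave a log2 change of 1.75 ± 0.49 (SE) at 4 h (adjusted p = 0.0121) and −0.87 ± 0.61 at 42 h (adjusted p = 0.311). Under that limit ERVW-1 and PGF were the 2 of 7 members that rose at 4 h and none fell, against 2.81% and 0.59% of all 29508 genes tested. A gene on the opposite strand, ENSG00000244055, covers both exons, and whether counting used strand is not given in the sources used here. That gene was at 2.34 and 1.51 CPM at 0 h and at 1.90 CPM at 4 h, between the 0 h libraries. ERVW-1 also has related copies elsewhere in the genome that could share its reads.

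ERVFRD-1, which encodes the other human syncytin, was the gene nearest to PGF in its course among all genes that met the limit of 2.5 CPM (distance 0.0953). It stood at 2.19 and 1.64 CPM at 0 h, 5.89 CPM at 4 h and 1.98 CPM at 42 h. OPRD1 (0.148) and MMP17 (0.164) followed. At 4 h ERVFRD-1 was 3.22-fold its 0 h level (2.67 to 3.89), and at 42 h it was 1.08-fold (0.855 to 1.36). Since ERVFRD-1 was picked for this course, its values are a description only. Of 7 other genes listed for cell fusion, ERVFRD-1 included, 6 were tested, and at 42 h none rose and 2 fell, against 19.9% and 17.8% of all genes. These were MFSD2A, the receptor of syncytin-2, from 15.4 and 15.1 CPM to 1.96 CPM, and ERVMER34-1, from 31.4 and 24.6 CPM to 4.61 CPM. SLC1A5, the receptor of syncytin-1, was at 424 and 491 CPM at 0 h and 232 CPM at 42 h.

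CGA encodes the alpha subunit that chorionic gonadotropin shares with pituitary hormones, and lies at chr6:87085498-87095106 with 4 exons. It had 0 counts in both 0 h libraries and 1, 0, 3, 19 and 10 counts in the 4, 12, 20, 28 and 42 h libraries. In both experiments the 28 h and 42 h libraries were the only ones above 3 counts. Their levels of 0.322 and 0.163 CPM were at least 11.7-fold and at least 5.95-fold higher than 3 counts over the 0 h libraries together. With counting error in both counts, the lower bounds of these ratios were 8.63 and 4.00. CGA met a limit of 10 counts only through these late libraries, which held 19 and 10 of its 33 counts in the time series. In the edgeR group fit with a limit of 10 counts, adjusted p was 0.000288 at 28 h and 0.00284 at 42 h. At 28 h 9.64% of all genes rose and 5.14% fell in this fit. The intervals of these libraries overlapped (0.194 to 0.502 and 0.0784 to 0.301 CPM). Of the beta subunit genes with which CGA would pair, CGB3 and CGB5 were at 0 counts at 42 h, CGB8 had at most 2 counts in the time series, and CGB7 went from 0.922 and 0.673 CPM at 0 h to 1.52 CPM at 42 h (log2 change 1.26 ± 0.46 SE, edgeR adjusted p = 0.0259 with the limit of 10 counts). These genes are near-identical copies that could share reads with each other and with LHB.

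GCM1 encodes a transcription factor that drives syncytiotrophoblast formation, and lies at chr6:53126961-53148841 with 6 exons. It had 4 and 1 counts in the 0 h libraries and 0, 0, 1, 1 and 22 counts in those of 4, 12, 20, 28 and 42 h, the last being 0.359 CPM. The 42 h library alone stood apart, at 7.86-fold the 0 h level (2.90 to 26.6). The 0 h libraries differed, and the log2 ratio of 42 h over 0 h was 2.41 against their mean, 3.94 without replicate 1 and 1.68 without replicate 2. Of the 29 counts of GCM1 in the time series 22 came from the 42 h library, so it met a limit of 10 counts only through that library. In the edgeR group fit with a limit of 10 counts, the log2 change at 42 h was 3.13 ± 1.04 SE (adjusted p = 0.0128). Under that limit VTCN1, CGA and GCM1 rose and SDC1 fell at 42 h of 7 members tested, against 14.6% and 13% of all genes. CGA and GCM1 met this limit only through the late libraries in which they were high. ELF5, an ETS factor that marks trophoblast stem cells, lies at chr11:34478791-34525193 with 7 exons, and had 1 count at 12 h, 3 at 28 h and 0 in the other time-series libraries. The 42 h library allows up to 0.049 CPM of it. Of 7 other genes listed for GCM and ETS factors, 5 were tested, and ELF1, ELF2, ELF3 and ELF4 rose and ETS2 fell at 42 h in the group fit to genes with a mean of 1 CPM or more, in which 19.9% of all genes rose and 17.8% fell. ELF4 had the largest log2 ratio of 42 h over 0 h, 4.59, and ETS2 the lowest, −3.66.

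CYP19A1 encodes aromatase, which makes estrogens, and lies at chr15:51208057-51338601 with 10 exons. It stood at 0.474 and 0.393 CPM at 0 h, between 0.169 and 0.412 CPM from 4 h to 28 h, and at 0.605 CPM at 42 h. The 42 h level was 1.44-fold the 0 h level (0.906 to 2.26), and the difference did not pass the edgeR group fit (log2 change 0.81 ± 0.59 SE, adjusted p = 0.330). HSD3B1, which encodes the placental enzyme making progesterone, lies at chr1:119507198-119515054 with 4 exons. It had 2 counts at 4 h, 3 at 20 h and 0 in the other 5 time-series libraries, and its close paralog HSD3B2 had at most 2 counts. Upstream of both, CYP11A1, which encodes the enzyme that opens steroid synthesis, rose from 0.948 and 1.28 CPM at 0 h to 3.84 CPM at 28 h and 15.0 CPM at 42 h (log2 change 3.98 ± 0.39 SE, edgeR adjusted p = 6.76e-23). Of the 10 other steroid genes 7 were tested, and CYP11A1, STS, FDX1 and FDXR rose and STAR fell at 42 h, against 19.9% and 17.8% of all genes. STS, steroid sulfatase, went from 17.0 and 15.9 CPM to 82.9 CPM. STAR, which carries cholesterol into mitochondria, went from 1.82 and 2.34 CPM to 0.359 CPM.

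SIGLEC6, a sialic acid receptor of human placenta, lies at chr19:51517819-51531856 with 8 exons, and had 0 counts in all 13 libraries. Of 11 other Siglec genes, SIGLEC10 alone was tested, and it was lower at 42 h (0.229 CPM) than at 0 h (1.85 ± 0.22 CPM, SD, n = 2; log2 change −2.76 ± 0.59 SE, edgeR adjusted p = 1.62e-05). In this fit 19.9% of all genes rose and 17.8% fell. With the limit of 10 counts 5 Siglec genes were tested, and none rose and 2 fell, against 14.6% and 13% of all genes.

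Levels between genes were compared as FPKM, which corrects for gene length. At 42 h VTCN1 was highest at 4.58 FPKM (4.23 to 4.96), followed by SDC1 at 3.66 (3.35 to 3.99). PGF was at 0.97 FPKM (0.779 to 1.19), CYP19A1 at 0.46 (0.324 to 0.634), CGA at 0.36 (0.173 to 0.662), GCM1 at 0.14 (0.0877 to 0.212) and ERVW-1 at 0.08 (0.0426 to 0.137). The intervals of neighbours overlapped for CYP19A1 and CGA, for CGA and GCM1, and for GCM1 and ERVW-1. HSD3B1, ELF5 and SIGLEC6 were listed at 0. At 0 h SDC1 was at 29.8 and 31.2 FPKM, PGF at 0.56 and 0.88 FPKM and every other member at or below 0.23 FPKM. VTCN1 thus went from 0.09 and 0.08 FPKM to the first place. FPKM of CYP19A1 did not track its CPM, since the 12 h library and the second 0 h library had 0.412 and 0.393 CPM but 0.37 and 0.14 FPKM.

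The 10 genes were then set beside wider lists of amnion and trophoblast genes. Of 11 other genes used as amnion markers, 8 met the limit of 2.5 CPM, of which 5 were below it in both 0 h libraries and so met it through later ones. With the limit of 10 counts all 11 were tested, and 10 rose and MUC16 fell at 42 h in the edgeR group fit, against 14.6% and 13% of all genes. The genes with the largest ratios were HAND1, WNT6 and ISL1, whose CPM at 42 h were 2919, 273 and 137. MUC16 went from 1.21 and 0.687 CPM to 0.098 CPM. All 10 genes common to amnion and trophoblast rose in that fit too, among them GATA3, from 0.158 and 0.196 CPM to 322 CPM. Of 26 syncytiotrophoblast genes, which include ERVFRD-1 and the CGB genes named above, 3 met the limit of 2.5 CPM and 1 of them, CYP11A1, rose past the standard deviation. In this list 9 genes never exceeded 3 counts in a time-series library, and 5 had none. Of 10 genes of trophoblast progenitors 6 reached that mean, of which TP63, EGFR and OVOL1 rose and ITGA6 fell. TP63, like CYP11A1, was below the limit of 2.5 CPM in both 0 h libraries and so met it through later ones. Of 12 extravillous genes 7 reached it, of which NOTUM, DIO2 and ITGA5 rose and FLT1 fell. NOTUM and DIO2 were likewise below it in both 0 h libraries. In this screen 7.49% of all genes rose and 8.65% fell. With the limit of 10 counts, 8 progenitor genes were tested in the edgeR group fit at 42 h, and 5 rose and 1 fell. Of 10 extravillous genes tested in it, 7 rose and 1 fell, against 14.6% and 13% of all genes. HLA-G, an extravillous gene whose mean was below 2.5 CPM, went from 0.790 and 1.11 CPM at 0 h to 2.81 CPM at 42 h, 2.82-fold (2.20 to 3.62). MMP12 and LAIR2 of the same list had no counts in any library. Among the progenitor genes TP63 went from 0.132 and 0.098 CPM to 70.2 CPM, and ITGA6 from 269 and 227 CPM to 31.3 CPM. VGLL1, whose mean was below 2.5 CPM, had no counts at 0 h, 4 h or 12 h. It had 13, 73 and 396 counts at 20, 28 and 42 h, and stood at 6.47 CPM and 7.33 FPKM at 42 h. TP63 and ITGA6 are also expressed in other epithelia.

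**Figure D2:**
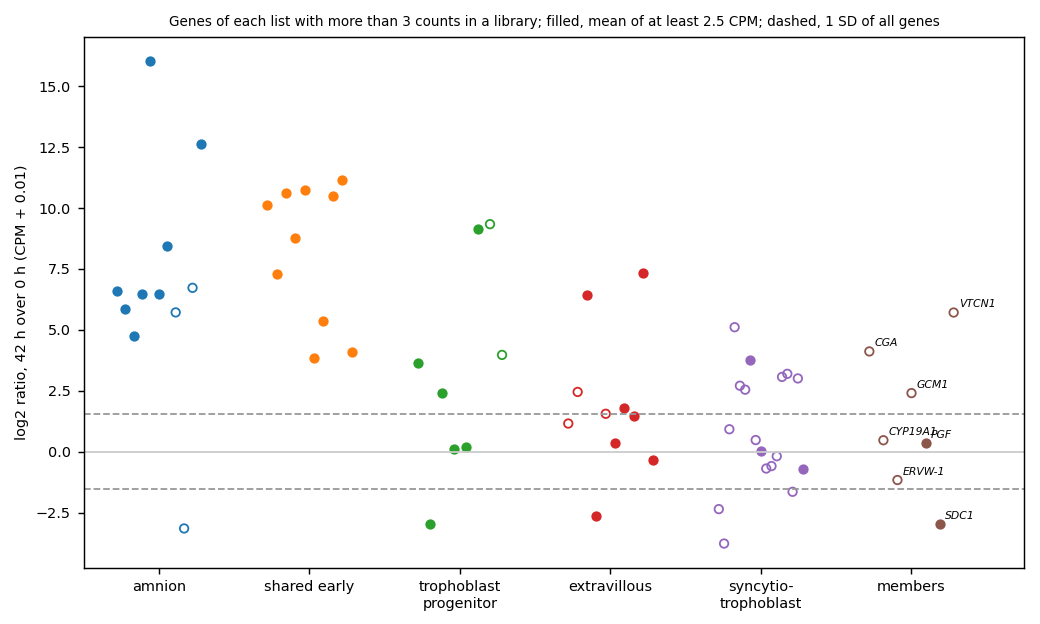
Log2 ratio of 42 h over 0 h (CPM plus 0.01, mean of the 0 h libraries) for the genes of each list that exceeded 3 counts in a time-series library, with filled points for a mean of at least 2.5 CPM and dashed lines at 1 SD (1.55) over all genes screened. Amnion and shared genes with filled points lie above the upper line, where the mean is raised by late levels, members range from SDC1 at −2.99 to VTCN1 at 5.71, and the heights of genes with no counts at 0 h, such as CGA, are set by the 0.01 added.

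Some other syncytiotrophoblast genes were also highest at 42 h. With a limit of 10 counts, 16 of the 26 genes were tested, and CYP11A1, INHA, PAPPA2, CRH, CGB7 and CSH2 rose and none fell at 42 h in the edgeR group fit, where 14.6% of all genes rose and 13% fell. CGB7 and CSH2 have near-identical copies that could share their reads. INHA, which encodes an inhibin subunit, went from 0.422 and 0.491 CPM at 0 h to 1.95 CPM at 28 h and 3.91 CPM at 42 h. PAPPA2, a protease that cleaves IGF binding proteins, went from 0.342 and 0.603 CPM at 0 h and 0.254 CPM at 28 h to 3.87 CPM at 42 h. CRH, the stress hormone that placenta also makes, had 1 and 2 counts at 0 h and reached 1.27 CPM at 42 h, 46.4-fold (15.3 to 230). PSG1, PSG4, PSG5 and LGALS16, genes of placental glycoproteins and a galectin, had no counts in any library.

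Summed over each list, the amnion genes went from 16.4 and 17.4 FPKM at 0 h to 181 FPKM at 4 h and 3371 FPKM at 42 h, of which HAND1 gave 2028 FPKM. The sum at 4 h rested mostly on BAMBI, which went from 9.06 and 10.3 CPM at 0 h to 240 CPM at 4 h. No other amnion gene exceeded 8.41 CPM at 4 h, the level of CLDN10, which had been at 9.30 and 9.24 CPM at 0 h. The syncytiotrophoblast genes went from 9.04 and 8.80 FPKM to 11.1 FPKM at 28 h and 23.9 FPKM at 42 h, where CYP11A1 gave 10.9 FPKM. The trophoblast progenitor genes stood higher, at 269 and 221 FPKM at 0 h and 296 FPKM at 42 h, of which PEG10 gave 145 FPKM. The extravillous genes went from 53.8 and 51.3 FPKM to 155 FPKM at 20 h and 93.9 FPKM at 42 h. The 10 members went from 30.9 and 32.5 FPKM to 10.3 FPKM, in which SDC1 made up most of the 0 h sum.

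**Figure D3:**
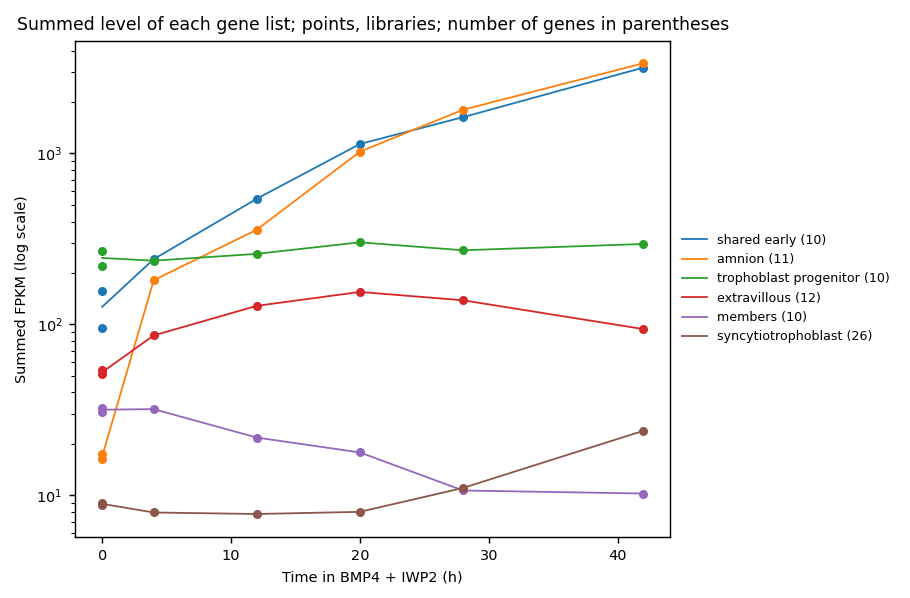
Summed FPKM (log axis) of 6 gene lists against hours in BMP4 with IWP2, with points for single libraries and lines through the mean at 0 h and each later library. The amnion and shared lists climb to 3371 and 3181 FPKM at 42 h, the syncytiotrophoblast list ends at 23.9 FPKM, and the members fall to 10.3 FPKM. The trophoblast progenitor and extravillous lists end at 296 and 93.9 FPKM.

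At 5 h the dose response asked whether the members followed the strength of BMP signaling. SDC1 stood at 39.7 CPM without LDN and at 49.9, 56.9, 64.9 and 70.8 CPM with 10, 30, 100 and 300 nM LDN, against 73.8 CPM in the untreated library. Each step of LDN brought a higher level. The untreated level was the highest, but its interval (69.6 to 78.2 CPM) overlapped that at 300 nM (68.0 to 73.7 CPM). SDC1 rose by 0.20 ± 0.02 (SE) on the log2 scale per LDN step (edgeR adjusted p = 3e-06), and its level without LDN was 0.538-fold the untreated level (0.495 to 0.584). PGF ran the other way, at 2.68, 1.71, 1.91, 1.51 and 1.18 CPM from 0 to 300 nM LDN and 1.28 CPM untreated. It was highest without LDN, and the 300 nM and untreated levels lay within each other's intervals. PGF fell by 0.25 ± 0.07 (SE) on the log2 scale per step (edgeR adjusted p = 0.0272). Its level without LDN was 2.09-fold the untreated level (1.26 to 3.61). This fall was lost without the 0 nM library (adjusted p = 0.320), the 100 nM library (0.0561) or the 300 nM library (0.162), and with DESeq2 (adjusted p = 0.0894). The 2 genes were the members tested, 1 in each direction, where 10.4% of 14907 genes rose and 10.9% fell with LDN.

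**Figure D4:**
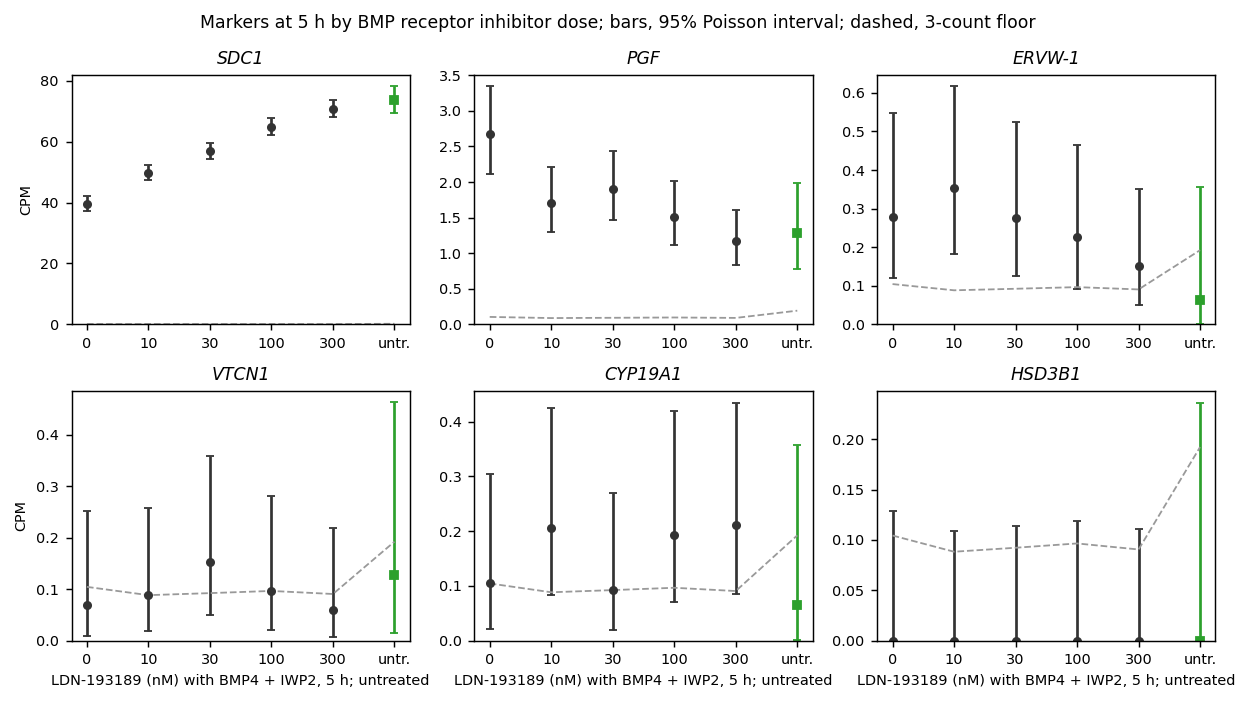
Level (CPM, linear axis from 0, scaled per gene) at 5 h of 6 members against LDN dose, with the untreated library as a green square. Points are single libraries, bars exact 95% Poisson intervals and the dashed line the level of 3 counts, and the plot shows SDC1 climbing from 39.7 to 70.8 CPM with LDN, PGF falling from 2.68 to 1.18 CPM, and HSD3B1 at 0 throughout.

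The remaining members were near or under the limit of detection at 5 h. ERVW-1 had 8, 12, 9, 7 and 5 counts from 0 to 300 nM LDN and 1 untreated. VTCN1 had 2, 3, 5, 3 and 2 counts and 2 untreated. CYP19A1 had 3, 7, 3, 6 and 7 counts and 1 untreated. With a limit of 10 counts, none of these 3 genes passed the edgeR dose fit (adjusted p = 0.510, 0.979 and 0.707), in which 6.97% of 22402 genes rose and 6.72% fell. ELF5 had 1 count, at 30 nM. GCM1, CGA, HSD3B1 and SIGLEC6 had 0 counts in all 6 libraries, which allows up to 0.192 CPM in the shallowest. In the fit to genes with a mean of 1 CPM or more, 6 amnion genes were tested, and none rose and HAND1, BAMBI, BMP4 and HPGD fell with LDN. Over all genes in this fit 10.4% rose and 10.9% fell. HAND1 was at 3.76 CPM without LDN and 0.060 CPM at 300 nM (log2 change −1.22 ± 0.12 SE per step, edgeR adjusted p = 1.02e-05). At 100 nM it was at 0.289 CPM, so it met the limit of 1 CPM through the lower doses. Of the syncytiotrophoblast genes TFPI2 alone was tested in that fit, and it did not pass (edgeR adjusted p = 0.884). SDC1 was 0.908-fold its 0 h level at 4 h in the time series (0.869 to 0.948) and 0.538-fold the untreated level at 5 h in the dose response. The sampling hour, the RNA selection, the kit and the reference library differ between these values, so they cannot be told apart as sources of the difference.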

How the data were processed

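Reads had been trimmed with Cutadapt and aligned to GRCh38 with STAR 2.7.8a, and the authors deposited RSEM 1.3.3 expected counts per gene and FPKM for 7 time-series and 6 dose-response libraries. The ENSEMBL release and the strand setting are not given in the sources used here. The deposited counts were whole numbers. From them CPM was computed over all features of a library, 5 reporter sequences that are not human included (at most 0.003006% of counts), and log2 ratios were taken after adding 0.01 CPM. FPKM values were used as deposited, for comparisons between genes.

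The members and the gene lists were chosen with earlier results of these data known. Only the 0 h group has 2 libraries, nothing says that they came from separate cultures, and p-values then measure a spread that may be technical. Trends over hours, and over LDN steps 0 to 4 without the untreated library, were fitted to all genes whose mean was 1 CPM or more with edgeR 4.0.16 (quasi-likelihood, TMM, Benjamini-Hochberg, threshold 0.05) in R 4.3.3, and DESeq2 1.42.0 was an alternative. A fit with time points as groups used the 0 h pair for the spread. The scripts were tested on simulated data. Genes whose mean was 2.5 CPM or more were screened for a log2 ratio of 42 h over 0 h past 1 SD. Counting intervals were exact Poisson intervals, or exact conditional intervals for ratios (scipy 1.17.1), and cover counting error only. Named genes were all members, the 3 genes of each list with the largest absolute log2 ratio of 42 h over 0 h among those screened, and the 3 genes nearest to each member with such a mean. Other genes were named after their values were seen. Gene positions came from GENCODE v44 (GRCh38), matched by gene identifier. Motifs were searched in the 250 bases before each RefSeq start site.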

Additional observations from a re-analysis of the deposited data

How the results depend on the processing

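No paired analysis was possible because only the 0 h group has more than 1 library, so no groups share 2 replicate numbers. The time trend called 5865 genes, 3413 on log2(hours + 1), and 3265 to 6602 with 1 library left out, lowest without 42 h. The dose trend called 3180 genes, and 1978 without LDN 0 nM and 2102 without LDN 300 nM, the range with 1 library left out being 1978 to 2974. On log2(hours + 1), VTCN1 changed by 0.98 per unit (edgeR adjusted p = 0.0616). With a limit of 10 counts and without the 42 h library it changed by 0.056 per hour (edgeR adjusted p = 0.145), and over all fits with 1 library left out by 0.056 to 0.175. For PGF the dose trend was −0.253 per step with DESeq2 and −0.286 to −0.187 with 1 library left out. Among log2 ratios of 42 h over 0 h, VTCN1 was 5.71 and became 3.96 with 0.5 CPM added, 5.95 with TMM, 5.94 with DESeq2 size factors and 5.59 from FPKM, and SDC1 was −2.99 and became −2.75 with TMM and −2.76 with size factors. Scaling by TMM moved the median ratio of the genes screened, chosen anew on that scale, from −0.20 to 0.04 and turned the split past 1 SD from 1022 up and 1181 down to 1249 up and 918 down. The directions of SDC1 and VTCN1 held under each of these scalings. VTCN1, with a mean of 1.87 CPM, was below the limit of 2.5 CPM and so was not called on this ratio. The cause of the changes was not tested. HSD3B1, ELF5, SIGLEC6, CGA and GCM1 had 22 counts or fewer in every library. Where they had none, absence and a level too low for the depth cannot be told apart. The alternatives that set the 4 to 28 h comparisons as groups, the limit of 10 counts with groups, and LDN 300 nM in place of the untreated library were chosen after seeing the data.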
